A study of Chlorocebus aethiops with 10 samples.

Results

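The molecular clock of a liver cell is a loop of transcription factors that switch one another on and off over each day. CLOCK, or its paralogue NPAS2, pairs with BMAL1 and activates genes with E-box elements, among them those of the PER and CRY proteins, which return to the nucleus and repress the pair. The nuclear receptors NR1D1 and NR1D2 (REV-ERB alpha and beta) repress BMAL1 and NPAS2, and DBP is an E-box-driven output factor that acts on D-box elements of metabolic genes. In mouse liver, transcripts of BMAL1 and NPAS2 peak in another phase of the day than those of NR1D1, DBP and the PER genes.

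The genes described here are the 10 clock genes CLOCK, NPAS2, PER1, PER2, PER3, CRY1, CRY2, NR1D1, NR1D2 and DBP, chosen by gene symbol. All 10 were measured, each by 1 array feature, out of 16583 genes with a symbol. The livers sampled were those of adult female African green monkeys (Chlorocebus aethiops), obese animals kept for 12 weeks on food rich in fat, and every array (10 in all) holds the biopsy of a different animal. Treated animals (n = 5) received antimiR-33a/b, an oligonucleotide that binds the microRNAs miR-33a and miR-33b, injected under the skin, with 20 mg/kg to begin with and 5 mg/kg a week thereafter, while vehicle animals (n = 5) received 0.9% NaCl. Biopsies were taken on day 57, and the labels do not give their time of day. Animals had been allotted to the arms at random, the replicates are separate animals, and the arms given only antimiR-33a or only antimiR-33b were not analysed here.

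Each value is a log expression value from which the authors removed the feature's own level, so it places an animal above or below the others for 1 gene and cannot be set against the value of another gene. The log base is not given in the sources used here. Values are read as log2, and with a larger base every fold below would lie further from 1. Because levels were removed, the labelled tissue could not be checked against liver markers, and how far a clock gene stood above background is unknown. In a biopsy of mixed cells, fewer cells of a type and less RNA per cell cannot be told apart.

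The comparison of antimiR-33a/b with vehicle animals asked which clock genes differed after 8 weeks of miR-33 inhibition. PER2 and CRY1, which encode repressors of the CLOCK complex, were higher in antimiR-33a/b livers, PER2 by 1.25-fold and CRY1 by 1.26-fold. The other 8 genes did not pass, the test being limma with a Benjamini-Hochberg adjusted p under 0.05 over all genes. Thus 2 of 10 clock genes passed, both higher, beside 20.5% of all 16583 genes called in either direction, 13.7% called higher and 6.8% called lower, so the share of clock genes called was near that of genes at large. The difference was positive for 7 of the 10, against 59.2% of all genes, with a median of 0.13 for the clock genes and 0.039 for all genes. Differences ran from -0.22 for NPAS2 to 0.33 for CRY1.

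**Figure D1:**
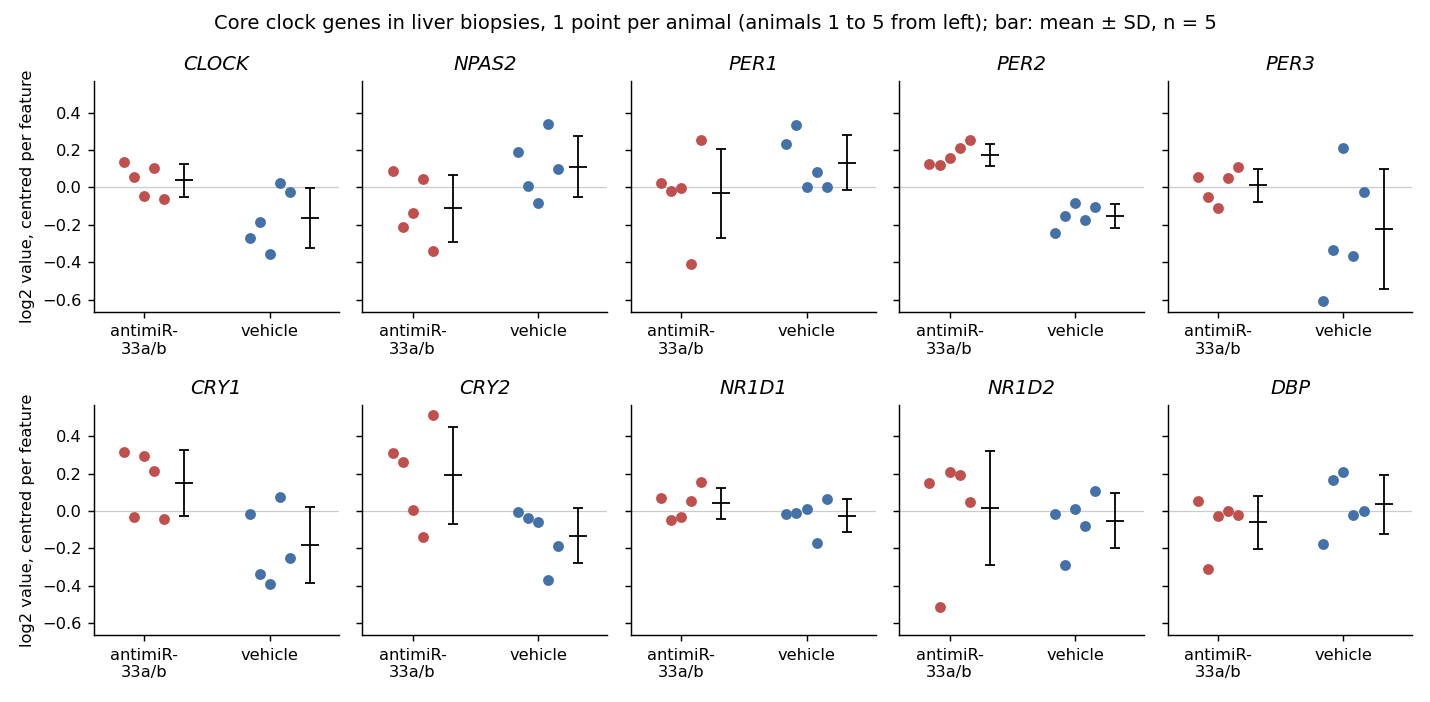
Log2 values, centred per feature, of the 10 clock genes (y axis) in antimiR-33a/b and vehicle animals, with 1 point per animal and the mean ± SD of 5 animals beside each group. PER2 is the 1 gene whose groups do not overlap, with antimiR-33a/b animals between 0.12 and 0.25 and vehicle animals between -0.25 and -0.082.

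Among the activators, CLOCK, the histone-acetylating partner of BMAL1, had values of 0.14, 0.055, -0.047, 0.10 and -0.061 in antimiR-33a/b animals, against -0.27, -0.19, -0.36, 0.026 and -0.026 in vehicle animals. Of the antimiR-33a/b animals, 3 lay above the highest vehicle animal, and vehicle animals 4 and 5 overlapped the treated group. The difference of 0.20 (95% confidence interval 0.030 to 0.37) missed the threshold (limma adjusted p = 0.0875). Without vehicle animal 4 it was 0.25, and the limma adjusted p was 0.0324; with arrays weighted by their quality the adjusted p was 0.0260.

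NPAS2, which can stand in for CLOCK, had values of 0.086, -0.21, -0.14, 0.047 and -0.34 in antimiR-33a/b animals, against 0.19, 0.0063, -0.083, 0.34 and 0.098 in vehicle animals. It was the activator with the lower mean in treated livers, though only 3 antimiR-33a/b animals lay below the lowest vehicle animal. The difference of -0.22 (95% confidence interval -0.43 to -0.015) did not pass (limma adjusted p = 0.117).

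BMAL1, the obligate partner of both and a gene outside the 10, was named after its values had been seen. It had values of 0.33, -0.17, 0.084, 0.16 and -0.22 in antimiR-33a/b animals, against -0.20, -0.33, -0.43, 0.21 and -0.0089 in vehicle animals, and the groups overlapped widely. Its difference was 0.19 (95% confidence interval -0.089 to 0.47, limma adjusted p = 0.314), and it was 0.12 without antimiR-33a/b animal 1 and 0.12 without vehicle animal 3.

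Among the PER genes, PER2 had values of 0.12, 0.12, 0.16, 0.21 and 0.25 in antimiR-33a/b animals, against -0.25, -0.15, -0.082, -0.17 and -0.11 in vehicle animals. Every treated animal lay above every vehicle animal. Means were 0.17 ± 0.058 in antimiR-33a/b animals and -0.15 ± 0.064 in vehicle animals (SD, n = 5 each). The difference was 0.32 (SE 0.056, 95% confidence interval 0.20 to 0.44) with a limma adjusted p of 0.0033. A two-sided exact permutation test of the 2 groups of animals gave p = 0.0079, the smallest it can give. Of all genes, 13.3% had groups that did not overlap and 8.79% had them apart with antimiR-33a/b higher, so PER2 was 1 of 2207 genes separated in this way or its opposite. The probe for PER2 was designed on the human transcript NM_022817. By the size of its limma p, PER2 ranked 270 among 16583 genes, and its residual SD within groups, 0.061, lay at the 3.84th percentile of all genes, so animals of 1 group differed little in this gene.

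PER1, a period gene that also responds to glucocorticoids and to cAMP signalling, had values of 0.023, -0.017, -0.0038, -0.41 and 0.25 in antimiR-33a/b animals, against 0.23, 0.34, 0.0040, 0.080 and 0.0038 in vehicle animals. Treated animals 4 and 5 held the lowest of the 10 values and the highest of the treated ones, and the groups overlapped. The difference was -0.16 (95% confidence interval -0.39 to 0.071, limma adjusted p = 0.302), and without antimiR-33a/b animal 4 it was -0.067 (limma adjusted p = 0.627).

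PER3 had values of 0.055, -0.053, -0.11, 0.050 and 0.11 in antimiR-33a/b animals, against -0.61, -0.33, 0.21, -0.37 and -0.023 in vehicle animals. Vehicle animals were spread over 0.82 and antimiR-33a/b animals over 0.22, and vehicle animal 3 was the highest of all 10. The difference of 0.23 (95% confidence interval -0.033 to 0.50) did not pass (limma adjusted p = 0.194). It moved with single animals and was 0.14 (limma adjusted p = 0.421) without vehicle animal 1, the lowest of the 10, and 0.34 (limma adjusted p = 0.0411) without vehicle animal 3.

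Of the cryptochromes, the more potent repressors of the loop, CRY1 had values of 0.32, -0.032, 0.30, 0.21 and -0.040 in antimiR-33a/b animals, against -0.015, -0.34, -0.39, 0.075 and -0.25 in vehicle animals. Treated animals 1, 3 and 4 lay above every vehicle animal, and treated animals 2 and 5 lay below vehicle animals 1 and 4. Means were 0.15 ± 0.18 in antimiR-33a/b animals and -0.18 ± 0.20 in vehicle animals (SD, n = 5 each). The difference was 0.33 (SE 0.10, 95% confidence interval 0.11 to 0.56) with a limma adjusted p of 0.0388 and p = 0.0476 in the exact permutation test. The call did not hold without any 1 of 6 animals (antimiR-33a/b animals 1, 3 and 4, vehicle animals 2, 3 and 5), where limma adjusted p reached 0.0925. It was also lost when all arrays were brought to a common median (adjusted p = 0.0629) or to common quantiles (adjusted p = 0.0997). The probe for CRY1 was designed on the human transcript NM_004075.

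CRY2, the paralogue of CRY1, had values of 0.31, 0.26, 0.0072, -0.14 and 0.51 in antimiR-33a/b animals, against -0.0072, -0.037, -0.058, -0.37 and -0.19 in vehicle animals. Of the antimiR-33a/b animals, 4 lay above every vehicle animal, and the exception was animal 4. The difference was 0.32 (95% confidence interval 0.078 to 0.57), about as large as those of PER2 and CRY1, and it missed the threshold (limma adjusted p = 0.0599). Without antimiR-33a/b animal 4 it was 0.40, with a limma adjusted p of 0.0245.

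The REV-ERB genes NR1D1 and NR1D2 form the second repressive arm. NR1D1 had values of 0.071, -0.047, -0.033, 0.056 and 0.16 in antimiR-33a/b animals, against -0.016, -0.010, 0.010, -0.17 and 0.067 in vehicle animals. The groups overlapped, and the difference of 0.065 had a 95% confidence interval of -0.071 to 0.20 (limma adjusted p = 0.485). On the fold scale this interval ran from 0.952 to 1.15. The difference was 0.028 without vehicle animal 4 and 0.036 without antimiR-33a/b animal 5.

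NR1D2 had values of 0.15, -0.52, 0.21, 0.19 and 0.047 in antimiR-33a/b animals, against -0.013, -0.29, 0.013, -0.077 and 0.11 in vehicle animals. Treated animal 2 was far below the other animals of its group, and 3 of the treated animals lay above every vehicle animal. The difference was 0.069 (95% confidence interval -0.20 to 0.34, limma adjusted p = 0.734). Without single animals it ranged from 0.0095 (limma adjusted p = 0.970), without vehicle animal 2, to 0.20 (limma adjusted p = 0.0933), without antimiR-33a/b animal 2. It was also smaller without antimiR-33a/b animal 1 (0.035), 3 (0.021) or 4 (0.025), and 0.11 without vehicle animal 5.

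DBP, the D-box output factor, had values of 0.053, -0.31, -0.026, 0.0019 and -0.021 in antimiR-33a/b animals, against -0.17, 0.17, 0.21, -0.022 and -0.0019 in vehicle animals. Here too antimiR-33a/b animal 2 was the lowest of the 10, and 4 of 5 treated animals lay inside the vehicle range. The difference was -0.096 (95% confidence interval -0.28 to 0.092, limma adjusted p = 0.453). It was -0.034 without antimiR-33a/b animal 2, -0.052 without vehicle animal 3, -0.063 without vehicle animal 2 and -0.15 without vehicle animal 1, and did not pass in any of the 10 fits without 1 animal (limma adjusted p of 0.263 or more).

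By single genes, 5 of 10 confidence intervals left out 0, those of CLOCK, NPAS2, PER2, CRY1 and CRY2, beside 35.6% of all genes with an unadjusted limma p under 0.05. In the exact permutation test, PER2 and CRY1 had p under 0.05, beside 32.9% of all genes, and p was 0.0556 for CLOCK, 0.0556 for CRY2 and 0.0794 for NPAS2. It was 0.159 for PER3, 0.222 for PER1, 0.286 for NR1D1, 0.349 for DBP and 0.643 for NR1D2. The within-group SD of 8 of the 10 genes exceeded the median over all genes, 0.118, and the 2 below it were PER2 and NR1D1.

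A contrast between pooled gene families, chosen with earlier results of these data known, also differed between the groups. For each animal, a family contrast was formed as the median over 9 families of housekeeping genes, such as ribosomal proteins and proteasome subunits, minus the median over 513 genes of 5 families that are normally silent in liver, such as olfactory receptors. It was 0.22, -0.087, 0.19, 0.034 and -0.014 in antimiR-33a/b animals, against -0.26, -0.16, -0.26, -0.014 and -0.29 in vehicle animals, a difference of 0.27 (two-sided exact permutation p = 0.0159). When the contrast entered the fit as a covariate, 4.15% of all genes passed. PER2 then differed by 0.36 (SE 0.078, limma adjusted p = 0.0391) and CRY1 by 0.045 (SE 0.13, limma adjusted p = 0.841). NPAS2 differed by -0.44 (SE 0.13, limma adjusted p = 0.0645) and CRY2 by 0.49 (SE 0.17, limma adjusted p = 0.0972), both further from 0 than without the covariate. The difference lay further from 0 for 8 of the 10 genes and closer for CLOCK (0.099) and CRY1, while NR1D2 changed sign to -0.11. Because the contrast differed between the groups, the standard errors of all 10 clock genes were larger in this fit. When single animals were also left out, PER2 differed by 0.32 to 0.42 and passed in 3 of 10 fits (limma adjusted p up to 0.203).

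**Figure D2:**
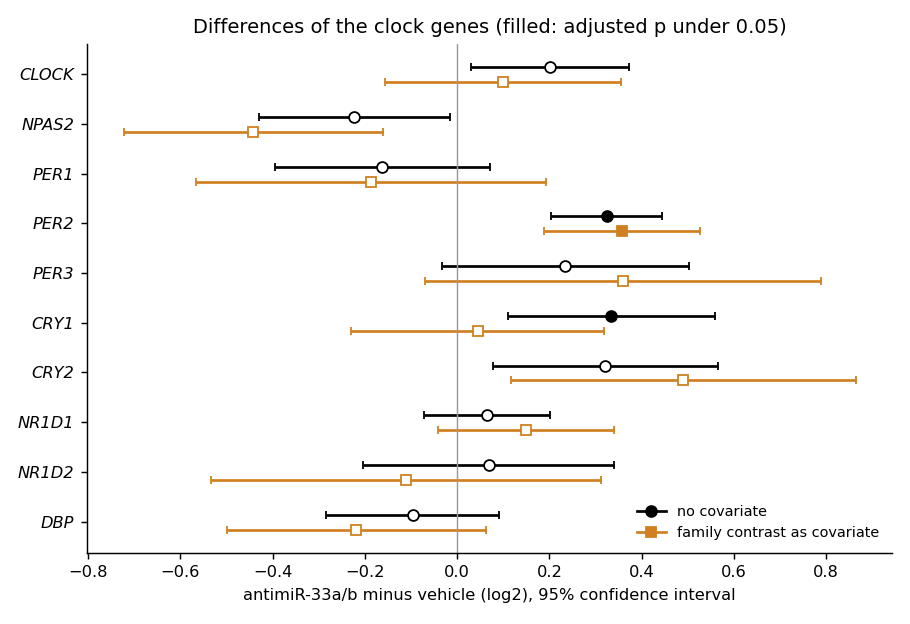
Difference of each clock gene, antimiR-33a/b minus vehicle on the log2 scale (x axis), with its 95% confidence interval, without a covariate (circles) and with the family contrast as covariate (squares). Filled symbols mark an adjusted p under 0.05, which PER2 had in both fits and CRY1 (0.33 without and 0.045 with the covariate) in 1.

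**Figure D3:**
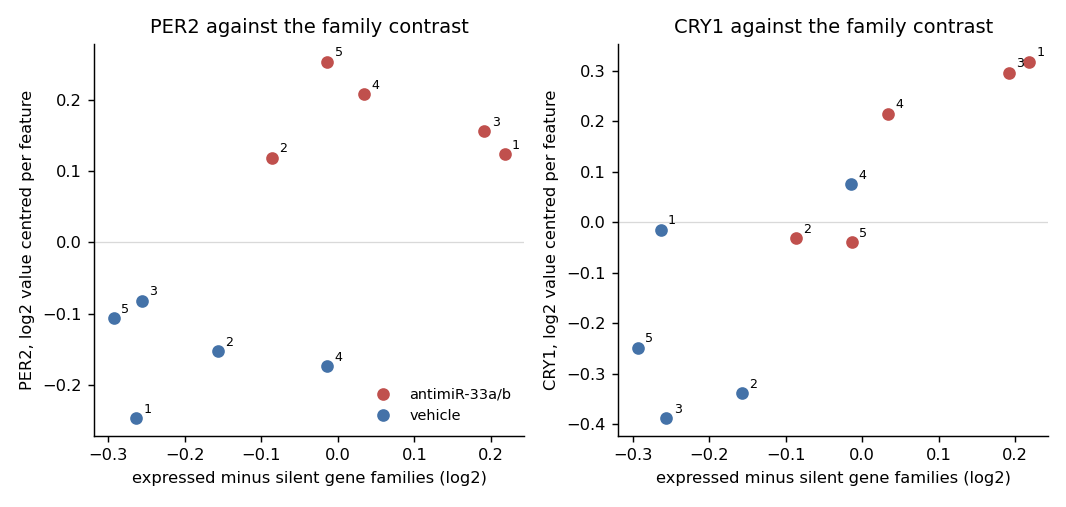
Values of PER2 (left) and CRY1 (right) on the log2 scale, centred per feature, against each animal's contrast of expressed minus silent gene families, with 1 numbered point per animal. The vehicle animal with the highest contrast, animal 4 at -0.014, had the highest vehicle value of CRY1, 0.075, while its PER2 value of -0.17 lay among those of the other vehicle animals.

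Clock genes also differed between animals of the same group. After each group's mean had been removed, all 45 pairs of the 10 genes were correlated over the 10 animals, with exact permutation within groups. NPAS2 and CRY1 went together most closely, with Pearson's r = 0.89 (exact permutation p = 0.0032, adjusted over the pairs p = 0.106) and Spearman's rho = 0.89 (exact permutation p = 0.0025, adjusted p = 0.0969). Without the 2 animals farthest from the median of NPAS2, r was 0.81 (exact permutation p = 0.0260). PER2 and PER3 followed with r = 0.80 (exact permutation p = 0.0047, adjusted p = 0.106) and rho = 0.73 (p = 0.0247 by exact permutation, adjusted p = 0.258), and r was 0.72 (exact permutation p = 0.0677) without 2 animals. PER3 and NR1D1 had rho = 0.83 (exact permutation p = 0.0043, adjusted p = 0.0969) beside r = 0.48 (exact permutation p = 0.206, adjusted p = 0.531), and r was 0.84 (exact permutation p = 0.0375) without 2 animals. PER1 with CRY2 (r = 0.78, exact permutation p = 0.0224, adjusted p = 0.328; rho = 0.81, p = 0.0112, adjusted p = 0.168) and CLOCK with NPAS2 (r = 0.71, exact permutation p = 0.0292, adjusted p = 0.328; rho = 0.70, p = 0.0385, adjusted p = 0.289) had unadjusted p under 0.05. Without the 2 animals farthest from the median of the first gene, r was 0.39 (exact permutation p = 0.426) and 0.48 (exact permutation p = 0.211). Leaving those animals out also narrows the spread of that gene. By adjusted p, 0 of 45 pairs passed, while 4 had an unadjusted p under 0.05 for Pearson's r and 6 for Spearman's rho. The correlation of NPAS2 was negative with each PER gene (-0.43 with PER1, -0.52 with PER2 and -0.42 with PER3) and with NR1D1 (-0.42), CRY2 (-0.60) and DBP (-0.14), none of these past an unadjusted exact p of 0.05.

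**Figure D4:**
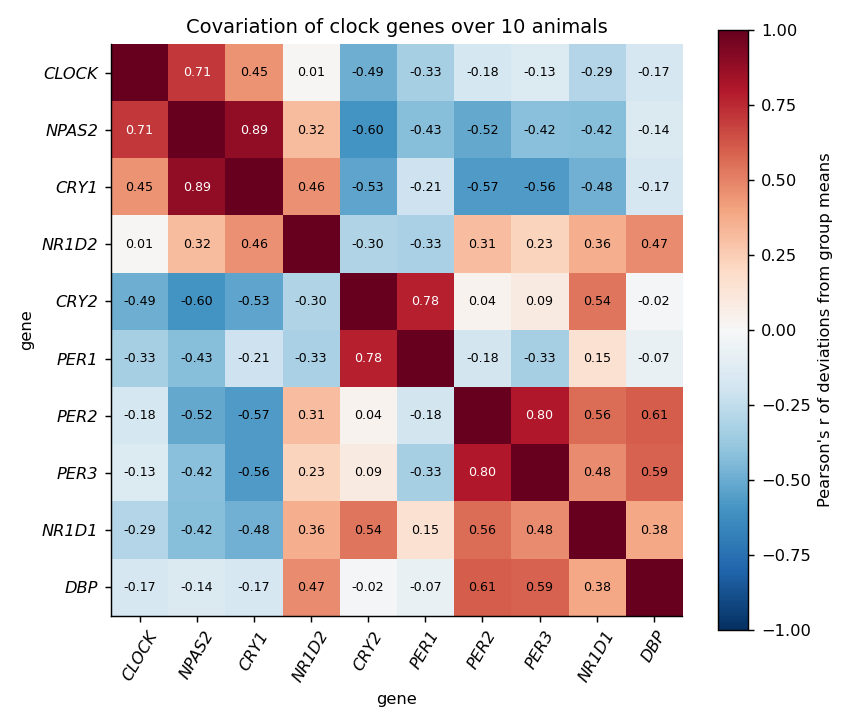
Pearson's r between pairs of clock genes (rows and columns) over 10 animals, computed on deviations from the group means. CLOCK, NPAS2 and CRY1 have positive values with one another, up to 0.89 for NPAS2 with CRY1. PER2, PER3, NR1D1 and DBP do likewise, up to 0.80 for PER2 with PER3, while values between these sets are negative. The sets were read from these values and leave out PER1, CRY2 and NR1D2. NR1D2 has positive values with every gene of both sets, from 0.0088 with CLOCK to 0.47 with DBP. By adjusted p, 0 of 45 pairs passed.

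BMAL1 was set against the 10 clock genes in the same way, an addition made after its values had been seen. Its deviations went with those of NPAS2 (r = 0.91, exact permutation p = 0.0017, adjusted over the 10 relations p = 0.0167; rho = 0.92, p = 0.0017, adjusted p = 0.0174), and r was 0.82 (exact permutation p = 0.0208) without the 2 animals farthest from the median of BMAL1. They also went with those of CRY1 (r = 0.84, exact permutation p = 0.0116, adjusted p = 0.0389; rho = 0.83, p = 0.0097, adjusted p = 0.0322) and CLOCK (r = 0.81, exact permutation p = 0.0117, adjusted p = 0.0389; rho = 0.84, p = 0.0091, adjusted p = 0.0322). For these r was 0.71 and 0.67 without 2 animals, with exact permutation p of 0.0955 and 0.0868 over the remaining 8 animals. Thus 3 of 10 relations passed, with p adjusted over these 10 alone and not together with the pairs above. The other 7, with r between -0.61 for CRY2 and 0.44 for NR1D2, did not. Of these 7, CRY2 (exact permutation p = 0.0752, adjusted p = 0.188 over all animals) had r = -0.80 without 2 animals, with an unadjusted exact permutation p of 0.0174. The time of day of each biopsy, against which such covariation could be set, is not given in the labels. No correlation, of BMAL1 or of the pairs above, was adjusted for the family contrast, and the part of that contrast was not tested. How many of all genes went as closely with BMAL1 was not counted, so these relations are not shown to be particular to clock genes. For NPAS2, genes outside the clock reached r = 0.95, beside 0.91 for BMAL1.

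For likeness across the array, deviations of NPAS2 and NR1D1 were correlated with those of the 16582 other genes over the 10 arrays. Nearest to NPAS2 were C11orf58 (r = 0.95), ABCC9 (r = 0.94), a subunit of potassium channels, and UGDH (r = 0.93), which makes UDP-glucuronate. Nearest to NR1D1 were ARHGAP33 (r = 0.97), OTP (r = 0.95) and EPS8L1 (r = 0.93). These are the highest of 16582 values over 10 arrays and are given as a description.

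Around the 10 genes stand other factors of the loop. Of 11 measured genes for other loop factors and the PAR bZIP factors related to DBP, 1 rose, 0 fell and 10 did not pass, so that 9.09% were called, beside 13.7% of all genes called higher and 20.5% called in either direction. The median difference was 0.12, and 0.039 for all genes. HLF, a PAR bZIP factor that shares D-box targets with DBP, rose by 0.40 (SE 0.13, limma adjusted p = 0.0457), with means of 0.15 ± 0.33 in antimiR-33a/b animals and -0.24 ± 0.12 in vehicle animals (SD, n = 5 each). HLF missed the threshold without any 1 of 7 animals (antimiR-33a/b animals 1, 3 and 5, vehicle animals 1, 2, 3 and 5, adjusted p up to 0.105), after both rescalings of the arrays, and beside the family contrast (difference 0.083). RORA, the nuclear receptor that activates BMAL1 from the elements REV-ERB represses, was named after its values had been seen. It averaged -0.12 ± 0.15 in antimiR-33a/b animals and 0.19 ± 0.25 in vehicle animals (SD, n = 5 each), a difference of -0.32 that missed the threshold (limma adjusted p = 0.0599). It passed without antimiR-33a/b animal 1 (adjusted p = 0.0420) or vehicle animal 2 (0.0388), as in quantile-normalized arrays (0.0393).

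The kinases, ubiquitin ligase subunits and corepressors that act on clock proteins rose in 5 of 10 measured cases and fell in 0, beside 13.7% of all genes called higher, with a median difference of 0.21. CSNK1A1, a casein kinase 1 that phosphorylates PER proteins, rose by 0.49 (SE 0.084, limma adjusted p = 0.0034). BTRC and FBXW11, the F-box proteins that mark phosphorylated PER proteins for degradation, rose by 0.34 (SE 0.052, adjusted p = 0.0021) and 0.40 (SE 0.078, adjusted p = 0.0060) in limma. In BTRC, antimiR-33a/b animals had values of 0.092, 0.10, 0.12, 0.15 and 0.098, against -0.28, -0.26, -0.17, -0.15 and -0.27 in vehicle animals. The groups lay well apart, and 8.79% of all genes had all antimiR-33a/b animals above all vehicle animals.

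GSK3B, a kinase that phosphorylates several clock proteins, rose by 0.23 (limma adjusted p = 0.0312), and SKP1, a core subunit of the ligase that BTRC and FBXW11 belong to, rose by 0.30 (limma adjusted p = 0.0397). GSK3B missed the threshold without any 1 of 5 animals (antimiR-33a/b animals 1, 3 and 5, vehicle animals 1 and 2), with adjusted p up to 0.0763. SKP1 missed it without any 1 of 6 (antimiR-33a/b animals 1, 3 and 4, vehicle animals 1, 2 and 3), where the adjusted p reached 0.101, and in quantile-normalized arrays. Beside the family contrast in the fit, BTRC stayed past the threshold (0.30, limma adjusted p = 0.0434), and FBXW11 (0.37, 0.0862), CSNK1A1 (0.24, 0.121), GSK3B (0.18, 0.257) and SKP1 (0.14, 0.524) missed it, each with its limma adjusted p after the difference.

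Of 12 genes described as clock-controlled outputs in liver, 2 rose, 0 fell and 10 did not pass, a share of 16.7% beside 13.7% of all genes called higher and 20.5% called in either direction, with a median difference of 0.052. The share called was thus near that of genes at large. NAMPT, the rate-limiting enzyme of NAD salvage, rose by 0.35 (SE 0.080, limma adjusted p = 0.0106), and INSIG2, which retains the SREBP complex in the endoplasmic reticulum, rose by 0.36 (SE 0.094, limma adjusted p = 0.0183). In both, all antimiR-33a/b animals lay above all vehicle animals, as they did in 8.79% of all genes. With the family contrast as a covariate NAMPT differed by 0.20 (limma adjusted p = 0.242) and INSIG2 by 0.14 (limma adjusted p = 0.479).

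**Figure D5:**
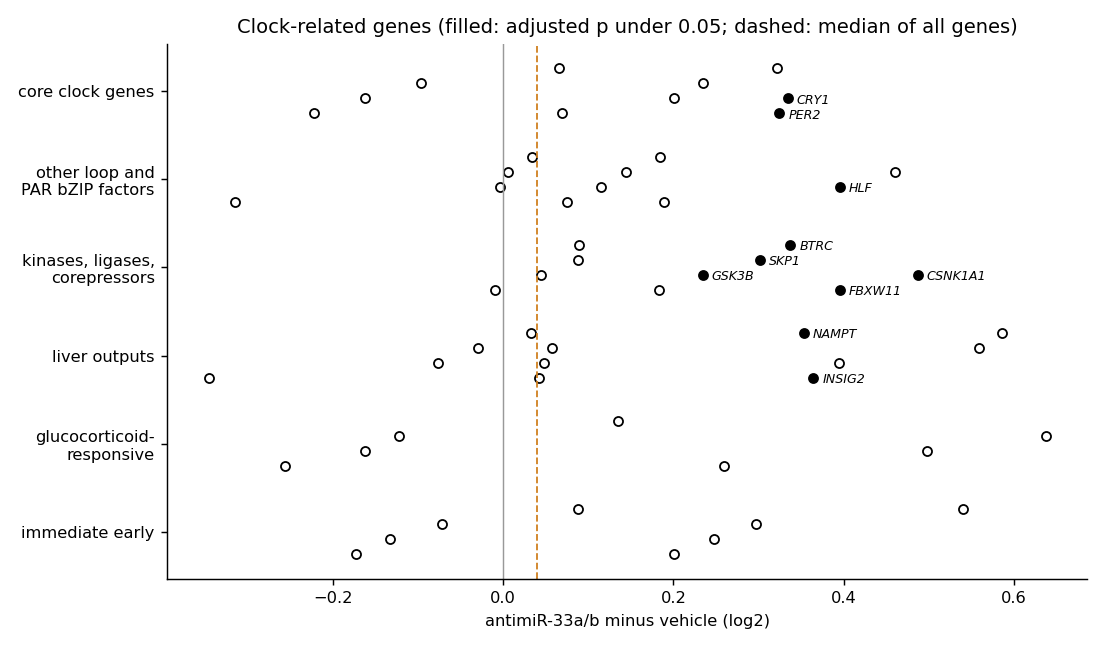
Difference of each measured gene, antimiR-33a/b minus vehicle on the log2 scale (x axis), in the 10 clock genes and 5 related gene lists (rows), with vertical offsets for legibility alone. Filled points are genes with an adjusted p under 0.05, of which the kinase and ligase list holds 5 of 10, and the dashed line is the median of all genes, 0.039.

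PER1 is also a target of glucocorticoid and acute stimulus signalling, so other genes of those responses were examined. Of 7 glucocorticoid-responsive genes 0 passed in limma, with 1 at an unadjusted p under 0.05, and of 8 immediate early genes 0 passed, none of them with an unadjusted p below 0.05, beside 20.5% of all genes past the adjusted threshold and 35.6% at an unadjusted p under 0.05. TSC22D3 differed by 0.50 (limma adjusted p = 0.0558), DUSP1 by 0.64, FKBP5 by 0.26 and TAT by -0.16, and among the immediate early genes IER2 differed by 0.30, EGR1 by 0.20, FOS by 0.54 and ATF3 by 0.25. Of these, 3 passed in limma without single animals: TSC22D3 without antimiR-33a/b animal 4 (adjusted p = 0.0195) or vehicle animal 4 (0.0141) and with array weights (0.0190), DUSP1 without antimiR-33a/b animal 3 (1.02, 0.0306) and IER2 without antimiR-33a/b animal 2 (0.0431). The median of the immediate early genes ran from -0.066 to 0.77 in antimiR-33a/b animals, against -0.12 to 0.41 in vehicle animals. It was highest in antimiR-33a/b animal 5. That animal also had the highest treated values of PER1, PER2, PER3, CRY2 and NR1D1, and the lowest treated values of CLOCK, NPAS2 and CRY1. The next highest median, 0.45, was that of antimiR-33a/b animal 1, which instead had the highest treated values of CLOCK, NPAS2 and CRY1. The part of glucocorticoid-responsive and immediate early genes in the clock gene values was not tested.

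Some cell type markers differed between the groups too, and their counts stand beside 13.7% of all genes called higher and 6.8% called lower. Of 8 hepatocyte markers 5 rose, and their median ran from -0.11 to 0.14 in antimiR-33a/b animals, against -0.39 to -0.068 in vehicle animals. Of 7 stellate and endothelial markers 4 rose (median from -0.021 to 0.28 in antimiR-33a/b animals, against -0.33 to 0.021 in vehicle animals), and of 6 T and NK cell markers 3 fell (median from -0.11 to 0.012 in antimiR-33a/b animals, against -0.011 to 0.21 in vehicle animals). Among 5 markers of macrophages 0 passed in limma, and likewise 0 among 5 of red cells and neutrophils, with 1 and 2 genes below an unadjusted p of 0.05. Of the red cell and neutrophil markers, 4 had a positive difference and 1 a negative one. HBB, a haemoglobin gene named after its value had been seen, differed by 1.25 (SE 0.43, limma adjusted p = 0.0551), the largest difference among all genes. Medians of the macrophage markers ran from -0.19 to 0.16 in antimiR-33a/b animals, against -0.72 to 0.37 in vehicle animals, and those of the red cell and neutrophil markers from -0.019 to 1.60 in antimiR-33a/b animals, against -1.12 to 0.20 in vehicle animals. Of 8 reported miR-33 targets and host genes 2 rose, 1 fell and 5 did not pass, beside 20.5% of all genes called in either direction. In each of the marker and miR-33 lists, 0 genes passed with the family contrast as a covariate, beside 4.15% of all genes. The part of these markers in the differences of the clock genes was not tested.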

How the data were processed

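Liver RNA of 10 monkeys was measured on one-colour arrays. The labels' protocols give Cy3-labelled double-stranded cDNA, from 1 µg of RNA. The authors deposited 1 table of log2 values as read here, centred per feature; the log base and the steps of scanning, background correction, normalization and centring are not stated in the labels. Over 45033 features they lay between -2.26 and 2.94, with array medians from -0.054 to 0.061, so they were used as deposited. A platform table gave a human gene symbol to 18188 features, and features of a gene were averaged (16583 genes). Lists gave 2 older symbols that were matched by gene number.

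The fit used limma's lmFit and eBayes with no covariate (limma 3.58.1, R 4.3.3), adjusted over all genes, after a test on simulated data. The clock genes, lists and family contrast were chosen with earlier results of these data known. Genes named outside the 10 are those past the threshold in each clock-related list, or the 4 with the smallest p where none passed. For NPAS2 and NR1D1 the 3 genes most alike were named. BMAL1, RORA and HBB are exceptions. Marker lists and miR-33 genes are otherwise given as counts. Alternatives were quantile normalization, a common array median, trend and robust settings, array weights, other ways to combine features, the family contrast as a covariate, an exact permutation test, and leaving out each animal.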

Additional observations from a re-analysis of the deposited data

Results flagged for a closer look

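In antimiR-33a/b animal 2, NR1D2 was -0.52, while the nearest other animal of that group was at 0.047. DBP in the same animal was -0.31, with the nearest other treated animal at -0.026. IER2, an immediate early gene, was -0.41 in vehicle animal 3, with the nearest other vehicle animal at -0.022. In each case the gap to the nearest animal took more than 0.71 of the range of the 5 animals, the critical value of Dixon's test for 5 samples. The test was run on 56 groups (28 genes in both groups), of which these 3 (5.36%) stood out, and chance gives about 1 in 20.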

How the results depend on the processing

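The count of clock genes called, 2, became 1 (PER2) after quantile normalization, 1 (PER2) with arrays brought to a common median, and 1 (PER2) with the family contrast as a covariate. By the exact permutation test adjusted over all genes, 0 clock genes and 0 of all genes passed, and its smallest adjusted p was 0.0596. This outcome was set by the test, whose p cannot fall below 0.0079. With 2207 genes tied at that p, no gene could reach an adjusted p under 0.05. An unadjusted exact p under 0.05 was found for 5454 genes. Without single animals 1 to 3 clock genes were called, and 1925 to 4117 genes in all, against 3399 with all animals, with counts of 2030, 1925 and 2135 without antimiR-33a/b animal 3, vehicle animal 1 and vehicle animal 2. With the covariate 688 genes passed, and with single animals left out as well, added after the data were examined, 0 to 1031 genes and 0 to 1 clock genes. Over all features, named and unnamed, 9560 of 45033 passed. Calls split into 2271 higher and 1128 lower, and after quantile normalization into 1784 and 1504. By unadjusted exact permutation, 2 clock genes had p under 0.05, with 1 after quantile normalization, 1 with a common median and 1 to 3 without single animals. With the covariate NR1D2 turned to -0.11 and BMAL1 to -0.17; with single animals left out as well, NR1D2 ranged from -0.28 to 0.27 and CRY1 from -0.028 to 0.11, against 0.28 to 0.40 for CRY1 without single animals alone. The cause was not tested. Over 19 alternatives, those that join the covariate with a left-out animal aside, PER2 passed in 18 and CRY1 in 9. The exception for PER2 was the exact permutation test (adjusted p = 0.0596), in which no gene could pass. Each clock gene had 1 feature, so the other ways to combine features left its values unchanged, and passing there adds little to these counts. No pair of clock genes passed with or without the 2 animals farthest from the median (0 and 0 of 45; 4 and 2 at an unadjusted p under 0.05). A filter on dim features could not be made from centred values. No paired analysis was possible because nothing in the labels pairs the animals. Signal over background is unknown, and the number of arrays limits the precision.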
